A study of Mus musculus with 9 samples.

Results

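The 10 genes described here encode enzymes that make serine, proline, asparagine and cysteine or handle one-carbon units: Asns, Psat1, Phgdh, Psph, Shmt2, Mthfd2, Aldh18a1, Pycr1, Cth and Cbs. They were taken from a list of names, each of which matched 1 gene identifier, and all 10, of 48440 genes in the count tables, passed the filter on low counts. All are protein-coding genes on the minus strand, at (mm10) chr6:7675169-7693254 (Asns), chr19:15904678-15947337 (Psat1), chr3:98313170-98339990 (Phgdh), chr5:129765558-129787449 (Psph), chr10:127517123-127522444 (Shmt2), chr6:83305691-83325908 (Mthfd2), chr19:40550257-40588463 (Aldh18a1), chr11:120635712-120643769 (Pycr1), chr3:157894248-157925077 (Cth) and chr17:31612623-31637199 (Cbs). The cells were J1 mouse embryonic stem cells of the genotype Suz12-AID, in all groups. Suz12 belongs to the core of PRC2, the Polycomb complex that places methyl groups on histone H3, and the degron lets auxin (indole-3-acetic acid) trigger removal of the protein. The 9 polyA RNA libraries are biological triplicates of 3 conditions: Mock, Auxin, in which the cells had 50 µM of the hormone during 96 h, and Re-introduction, in which a washout of 4.5 h followed. All grew on gelatin in serum medium with LIF and 2i inhibitors, supplemented with glutamine, non-essential amino acids and 2-mercaptoethanol. The labels do not say how many clones were used, what the Mock cells received, or whether their medium was renewed when auxin was washed out. They also do not describe how the replicate cultures were separated, so p-values measure the spread between these samples.

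Cells make serine from a glycolytic intermediate in a chain of reactions: Phgdh oxidises phosphoglycerate, Psat1 adds the amino group and Psph removes the phosphate. Shmt2 then splits serine in mitochondria into glycine and a one-carbon unit carried by folate, and Mthfd2 oxidises that unit. Aldh18a1 and Pycr1 make proline from glutamate, Asns makes asparagine from aspartate, and Cbs and Cth pass the sulphur of homocysteine through cystathionine to cysteine. Many of these genes are known targets of ATF4, a transcription factor of the integrated stress response, which is activated when amino acids run short or when protein folding or mitochondria are disturbed.

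The promoters of 5 of the genes are shown, 4 that rose under auxin and Cbs, which fell, because ATF4 sites are known near the start of genes of this kind. RefSeq promoter windows (GRCm38.p6, the assembly called mm10) run from 250 bases before to 50 bases after a start site, and 9 of the 10 genes matched by symbol. Cth was not matched, and Psat1 had 2 windows. The letters TGATGNAA, the core of the C/EBP-ATF response element, and CACGTG, the E-box, were searched on both strands, and capitals mark a match. The windows are chr6:7693160-7693459 (Asns), chr11:120643699-120643998 (Pycr1), chr19:40588414-40588713 (Aldh18a1), chr17:31637156-31637455 (Cbs) and chr6:83317555-83317854 (Mthfd2), all on the minus strand and written 5′ to 3′ along the gene. The Mthfd2 window lies inside the span that the count annotation gives for the gene, which starts further upstream.
Asns: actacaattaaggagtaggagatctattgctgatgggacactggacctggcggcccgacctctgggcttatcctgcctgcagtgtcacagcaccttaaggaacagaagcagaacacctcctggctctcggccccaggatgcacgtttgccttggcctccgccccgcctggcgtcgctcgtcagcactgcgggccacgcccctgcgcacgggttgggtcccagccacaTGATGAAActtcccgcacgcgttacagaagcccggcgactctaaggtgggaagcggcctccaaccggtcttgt
Pycr1: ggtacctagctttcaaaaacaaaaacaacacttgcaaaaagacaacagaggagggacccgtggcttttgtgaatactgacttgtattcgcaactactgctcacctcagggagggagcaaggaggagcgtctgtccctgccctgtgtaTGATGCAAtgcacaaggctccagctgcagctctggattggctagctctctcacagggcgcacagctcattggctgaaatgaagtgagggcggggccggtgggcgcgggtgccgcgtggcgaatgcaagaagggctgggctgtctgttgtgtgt
Aldh18a1: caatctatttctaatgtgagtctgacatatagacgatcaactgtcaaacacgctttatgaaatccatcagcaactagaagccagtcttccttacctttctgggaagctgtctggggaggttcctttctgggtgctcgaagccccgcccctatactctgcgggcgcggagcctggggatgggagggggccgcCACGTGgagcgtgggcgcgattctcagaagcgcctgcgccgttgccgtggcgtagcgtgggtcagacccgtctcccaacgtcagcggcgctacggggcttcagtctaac
Cbs: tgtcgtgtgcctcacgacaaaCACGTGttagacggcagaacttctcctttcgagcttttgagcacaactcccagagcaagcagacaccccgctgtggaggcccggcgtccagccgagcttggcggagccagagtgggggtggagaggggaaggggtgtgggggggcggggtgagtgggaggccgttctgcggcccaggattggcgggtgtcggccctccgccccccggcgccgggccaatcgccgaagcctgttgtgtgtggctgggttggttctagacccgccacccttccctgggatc
Mthfd2: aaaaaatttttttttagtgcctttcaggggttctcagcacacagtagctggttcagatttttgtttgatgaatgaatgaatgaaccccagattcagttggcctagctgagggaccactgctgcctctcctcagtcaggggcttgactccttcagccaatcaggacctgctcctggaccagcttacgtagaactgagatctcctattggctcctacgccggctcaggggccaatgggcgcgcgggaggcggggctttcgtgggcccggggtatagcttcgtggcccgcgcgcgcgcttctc
The response element core was present in 2 of the 9 matched genes, Asns (TGATGAAA, 23 bases before the start site) and Pycr1 (TGATGCAA, 103 bases before it). It was present in 3.97% of all 32851 windows of this length. The E-box was present in Aldh18a1 (59 bases before the start site) and Cbs (229 bases before it), against 7.15% of all windows. Mthfd2, shown for its large swing between groups, held neither set of letters in this window, like Phgdh, Psat1, Psph and Shmt2. A match describes letters, not a bound site.

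Library totals ranged from 44341283 to 113931419 counts, each mate of a pair being counted. Suz12 mRNA, which a degron does not target, stood at 133 ± 6.62, 141 ± 16.9 and 168 ± 4.47 CPM in the Mock, Auxin and Re-introduction groups (mean ± SD, n = 3), where CPM is counts per 1000000 of the scaled library. All 10 embryonic stem cell markers examined, Pou5f1 and Nanog among them, were detected in every group, with summed levels of 6281 to 6452 CPM in Mock, 7744 to 8324 under auxin and 6049 to 6111 after washout. They did not move together. Pou5f1 was at 844, 583 and 578 CPM, Dppa5a at 411.5, 184 and 247.5 CPM and Nanog at 1014, 1155 and 890 CPM. Under auxin 7 of the 10 were called higher and 2 lower in the test described below, against 38.2% and 34.7% of all genes tested. Markers of other cell types had lower sums, which moved between groups. In the same order, 6 endoderm markers summed to 2.27 to 2.95, 12.2 to 13.3 and 5.50 to 5.91 CPM, and 8 fibroblast markers to 18.6 to 20.7, 40.4 to 47.5 and 38.1 to 39.4 CPM. The highest endoderm marker was Gata4, at 1.70, 7.02 and 3.57 CPM. All 5 endoderm markers tested were called at least 2-fold higher under auxin, against 19.8% of all genes tested. After washout 5 were called lower than under auxin, against 25.5%. Set against Mock, 2 were then called higher and 1 lower, against 34.5% and 33.5%. Nearly all of the fibroblast sum was Thy1 (means of 17.9, 41.2 and 37.5 CPM). Col1a1 was at 0.418, 0.152 and 0.251 CPM, Col1a2 at 0.18, 0.32 and 0.13 CPM and Pdgfra at 0.764, 1.23 and 0.690 CPM. Postn was at 0.0093, 0.0081 and 0.017 CPM. Col3a1, Dcn and Lum, already at 0.0227, 0.0223 and 0.0226 CPM in Mock, had 0 counts in all Auxin libraries. The 5 mesoderm markers summed to 47.4 to 49.0, 25.7 to 28.4 and 68.5 to 71.1 CPM and the 5 neural markers to 113 to 123, 81.5 to 97.9 and 80.5 to 83.2 CPM, with Neurog2 at 0 in every group. The mesoderm sum was mostly Eomes (35.4, 25.6 and 66.9 CPM), and T was at 9.82, 0.255 and 1.36 CPM. The neural sum was mostly Tubb3 (98.55, 72.95 and 63.37 CPM) and Nes (17.65, 13.08 and 16.56 CPM). Pax6 was at 0.491, 0.287 and 0.359 CPM and Sox1 at 1.11, 0.825 and 1.27 CPM. The part of these markers in the enzyme results was not tested, and in bulk RNA fewer cells of a type and less RNA per cell cannot be told apart. Libraries also differed in the slope of log2 level on the log2 of exon length: it was -0.24 to -0.16 in Mock, 0.14 and 0.15 in Auxin replicates 1 and 3 but 0.012 in Auxin replicate 2, and 0.080 to 0.094 in Re-introduction.

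Under auxin, 9 of the 10 enzymes rose and 1, Cbs, fell. After washout all 10 were below their Auxin level, and against Mock they parted into 4 higher, 4 lower and 2 that did not pass the test. This last split was near the shares of all genes tested, 34.5% higher and 33.5% lower. The rises under auxin were largest for Cth (3.92-fold), Mthfd2 (3.46-fold), Pycr1 (3.30-fold) and Aldh18a1 (2.83-fold). Genes were called at an adjusted p-value under 0.05 (edgeR quasi-likelihood test, two-sided, Benjamini-Hochberg over all 20838 genes tested). Calls were common: in Auxin against Mock 72.9% of all genes tested were called, 38.2% higher and 34.7% lower. The Mock and Auxin libraries did not overlap for any of the 10 enzymes, which was also so for 74.3% of all genes tested. The median log2 fold change was 1.05 over the enzymes and 0.050 over all genes tested. At least 2-fold rises were called for 5 enzymes, against 19.8% of all genes tested, and at least 2-fold falls for 0, against 11.9%.

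**Figure D1:**
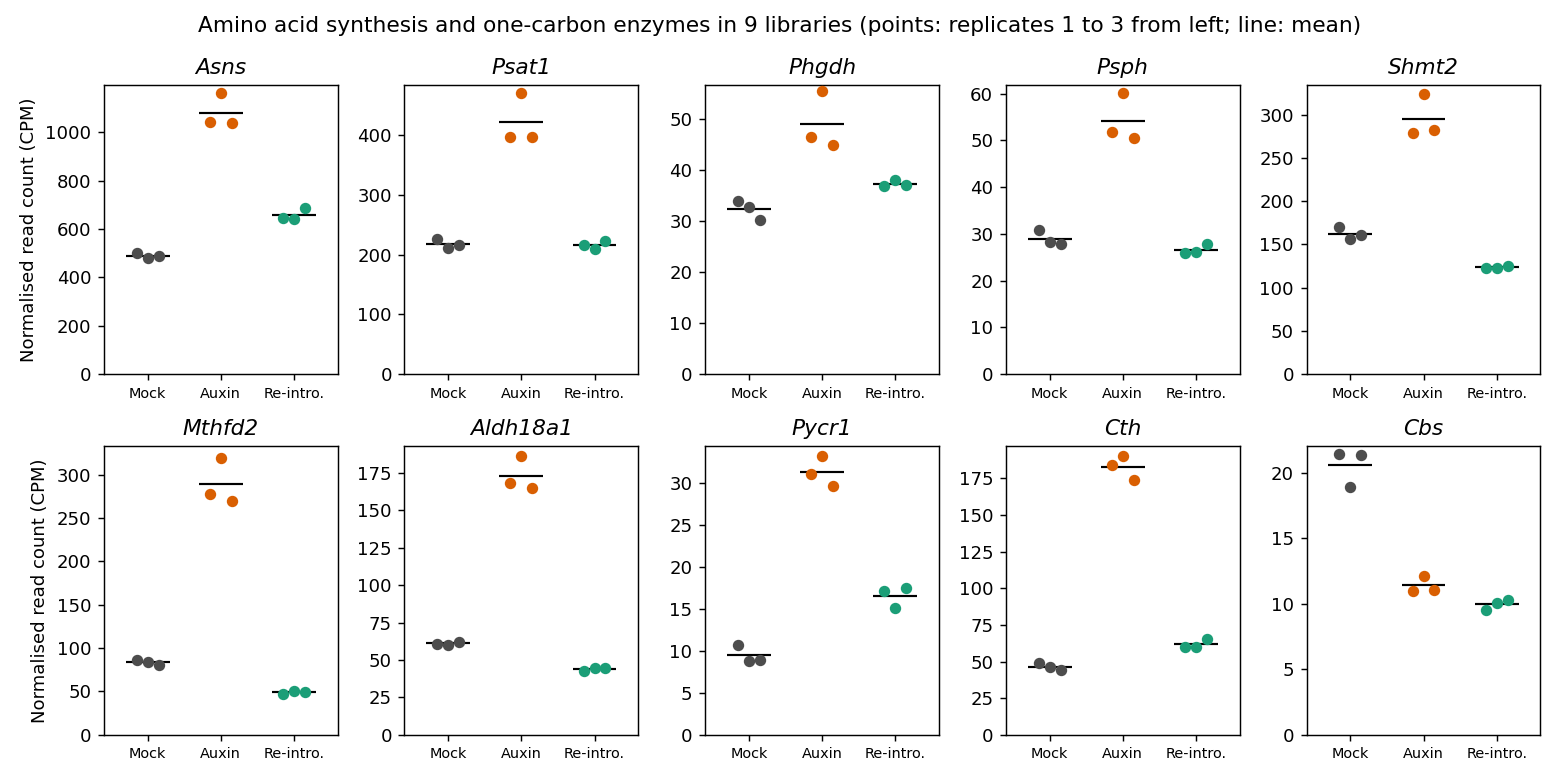
Normalised read count in CPM (vertical axes, from 0, scaled per gene) of the 10 enzyme genes in the 9 libraries, by group, with points for the 3 replicates and a line at their mean. The Auxin libraries lie above both other groups in 9 panels, while in the Cbs panel the Mock libraries lie above the rest.

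The serine pathway comes first. Phgdh, the entry enzyme, stood at 33.9, 32.8 and 30.1 CPM in Mock replicates 1 to 3, 46.6, 55.4 and 44.9 CPM under auxin and 36.9, 38.1 and 37.0 CPM after washout. The groups did not overlap, with Auxin highest and Mock lowest. Its rise under auxin, 0.60 on the log2 scale (SE 0.078, adjusted p = 1.41e-05), was the smallest among the 9. Psat1 was at 227, 211 and 215 CPM in Mock replicates 1 to 3, 396, 471 and 396 CPM under auxin and 216, 209 and 222 CPM after washout. The Auxin libraries of this aminotransferase lay apart, and those of Mock and Re-introduction overlapped. Psat1 had a log2 rise of 0.95 (SE 0.071, adjusted p = 8.36e-08). Psph was at 30.8, 28.3 and 27.8 CPM in Mock replicates 1 to 3, 51.9, 60.2 and 50.4 CPM under auxin and 25.9, 26.1 and 27.8 CPM after washout. For this phosphatase, which releases serine, Auxin was again highest and the groups did not overlap, although the lowest Mock and the highest washed library nearly met. Psph had a log2 rise of 0.90 (SE 0.073, adjusted p = 1.79e-07). It shares 452 bases of exon (10.4% of its exon length) with Cct6a, and counting did not use strand.

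Of the mitochondrial one-carbon enzymes, Shmt2 was at 170.3, 156 and 161 CPM in Mock replicates 1 to 3, 279, 325 and 282 CPM under auxin and 122, 123 and 125 CPM after washout. No group overlapped another, and the lowest was Re-introduction rather than Mock. Shmt2 had a log2 rise of 0.86 (SE 0.065, adjusted p = 9.38e-08). Mthfd2 was at 86.5, 83.5 and 80.5 CPM in Mock replicates 1 to 3, 278, 319.8 and 269 CPM under auxin and 47.1, 50.1 and 49.5 CPM after washout. The order of the groups was that of Shmt2, with a larger distance. Mthfd2 rose by 1.79 under auxin (SE 0.069, adjusted p = 2.35e-10) and fell by 2.56 after washout (SE 0.071, adjusted p = 8.74e-11), the largest fall among the 10. Shmt2 shares 30 bases of exon (1.3%) with Ndufa4l2.

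Of the proline enzymes, Aldh18a1 was at 60.9, 60.3 and 62.2 CPM in Mock replicates 1 to 3, 168, 186 and 165 CPM under auxin and 42.7, 44.5 and 44.4 CPM after washout. This enzyme, which turns glutamate into the precursor that Pycr1 reduces, ended below Mock in every library. It rose by 1.502 under auxin (SE 0.056, adjusted p = 2.01e-10) and fell by 1.98 after washout (SE 0.058, adjusted p = 1.18e-10). Pycr1 was at 10.7, 8.79 and 8.88 CPM in Mock replicates 1 to 3, 31.1, 33.3 and 29.6 CPM under auxin and 17.1, 15.2 and 17.5 CPM after washout. Unlike Aldh18a1, it stayed above Mock in all 3 Re-introduction libraries. Pycr1 had a log2 rise of 1.72 (SE 0.089, adjusted p = 2.93e-09).

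Asns, the asparagine synthetase, stood at 499.6, 481 and 489 CPM in Mock replicates 1 to 3, 1041, 1162 and 1038 CPM under auxin and 646, 643 and 689 CPM after washout. The groups were separate, with Re-introduction between Mock and Auxin. Asns rose by 1.14 under auxin (SE 0.064, adjusted p = 5.67e-09) and fell by 0.71 after washout (SE 0.063, adjusted p = 1.44e-06).

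The transsulfuration pair went opposite ways. Cth was at 49.0, 46.4 and 44.3 CPM in Mock replicates 1 to 3, 184, 190.1 and 174 CPM under auxin and 60.3, 59.9 and 65.3 CPM after washout. Cth, which cleaves cystathionine to cysteine, had the largest rise of the 10, 1.97 on the log2 scale (SE 0.061, adjusted p = 4.71e-11). Cbs was at 21.5, 19.0 and 21.4 CPM in Mock replicates 1 to 3, 11.01, 12.2 and 11.04 CPM under auxin and 9.52, 10.1 and 10.3 CPM after washout. For Cbs, which makes that cystathionine, Mock was the high group, and the other libraries lay close together below it. Cbs fell by 0.85 under auxin (SE 0.073, adjusted p = 3.04e-07).

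Auxin replicate 2, the library with the different length slope, was the highest Auxin library for all 10 enzymes. Without it, the 9 rises lay between 0.50 and 1.94 on the log2 scale and Cbs was at -0.91, all still called. The enzymes' exon lengths, 2305 to 4329 bases, put them in deciles 5 to 7 of tested genes, whose median log2 fold changes in Auxin against Mock were 0.035 to 0.13. With the trends of length and GC content removed, the rises lay between 0.90 and 2.07 and Cbs was at -0.71, again all called. The rise of Phgdh was 0.90 there.

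**Figure D2:**
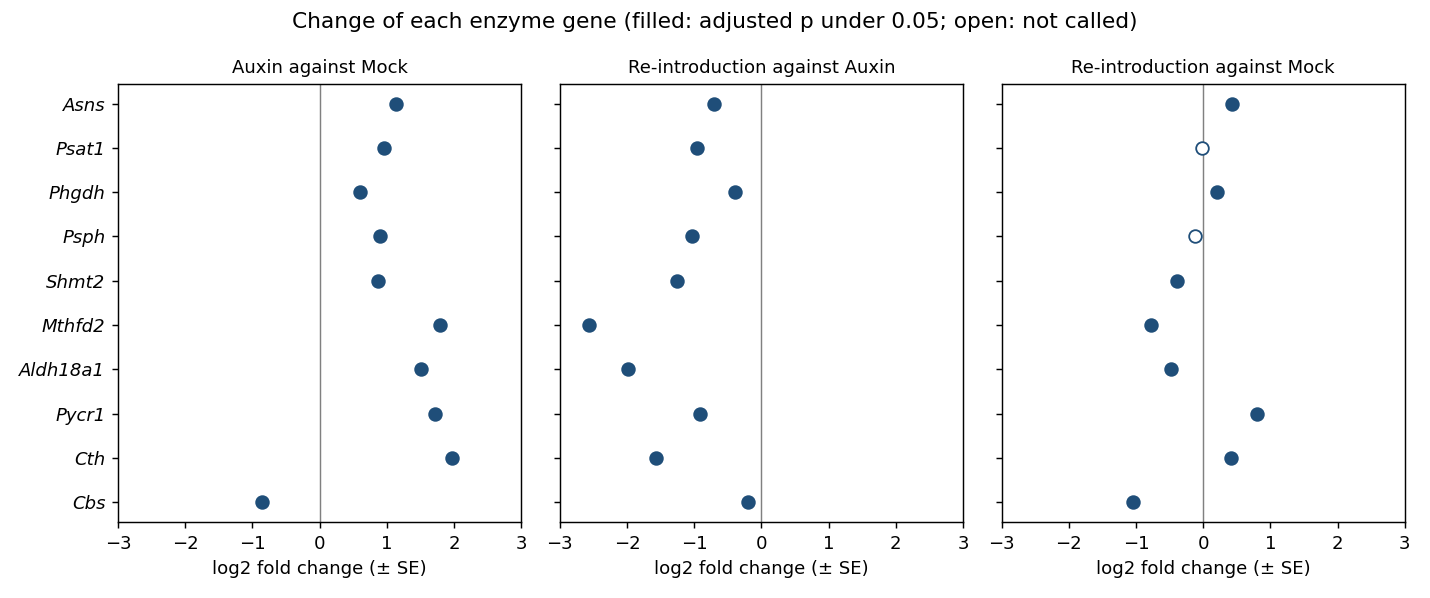
Log2 fold change (horizontal axes) of each enzyme gene in the 3 comparisons, with standard errors mostly smaller than the points; filled points passed an adjusted p-value under 0.05 and open points did not. To the right of 0 lie 9 genes in Auxin against Mock and none in Re-introduction against Auxin, while in Re-introduction against Mock they spread from -1.05 (Cbs) to 0.81 (Pycr1).

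After the washout of 4.5 h all 10 enzymes were called lower than under auxin and 0 higher (edgeR). Of all genes tested, 25.5% were called lower, 25.3% higher and 50.8% either way. At least 2-fold falls were called for 5 enzymes, against 6.80% of all genes tested (4.11% rose as much): Mthfd2 (5.91-fold), Aldh18a1 (3.95-fold), Cth (2.96-fold), Shmt2 (2.39-fold) and Psph (2.04-fold). The median log2 fold change was -0.99 over the enzymes and 0.0027 over all genes tested. Psat1 fell by 0.96 (SE 0.071, adjusted p = 3.14e-07), Pycr1 by 0.91 (SE 0.087, adjusted p = 2.71e-06) and Phgdh by 0.39 (SE 0.078, adjusted p = 0.00106) on the log2 scale. The Auxin and Re-introduction libraries overlapped for none of the 10, and did not overlap for 58.2% of all genes tested. This comparison shares the Auxin libraries with the one before, so the opposite signs of the 9 enzymes are not independent.

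The further fall of Cbs after washout was at the edge of the threshold, 0.19 on the log2 scale (SE 0.075, adjusted p = 0.0461). It was lost in 9 of 19 alternatives. Among these were the fits without Auxin replicate 2 (-0.16, adjusted p = 0.0830), Auxin replicate 3 (-0.22, adjusted p = 0.0561), Re-introduction replicate 1 (-0.17, adjusted p = 0.126) or Re-introduction replicate 2 (-0.20, adjusted p = 0.0914).

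Set against Mock, the washed cells divided the enzymes. Pycr1 was higher by 0.81 (SE 0.089, adjusted p = 5.36e-06), Asns by 0.43 (SE 0.063, adjusted p = 6.33e-05), Cth by 0.41 (SE 0.060, adjusted p = 5.93e-05) and Phgdh by 0.21 (SE 0.078, adjusted p = 0.0303) on the log2 scale. Cbs was at -1.05 (SE 0.074, adjusted p = 1.17e-07), Mthfd2 at -0.77 (SE 0.068, adjusted p = 7.21e-07), Aldh18a1 at -0.48 (SE 0.056, adjusted p = 8.73e-06) and Shmt2 at -0.40 (SE 0.065, adjusted p = 1.58e-04), all called lower. Psat1, at -0.010 (SE 0.071, adjusted p = 0.906), and Psph, at -0.12 (SE 0.074, adjusted p = 0.153), were not called, which does not show that they equalled Mock. Among all genes tested, 67.9% were called, 34.5% higher and 33.5% lower, so the enzymes' shares were near this background. Cbs alone of the 10 was at least 2-fold lower (2.07-fold), against 7.40% of all genes tested, and 0 enzymes were at least 2-fold higher, against 14.9%. Libraries of the 2 groups were separate for 9 enzymes, all but Psat1, and for 75.2% of all genes tested.

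Some of these residual differences were less firm. Phgdh lost its call in 7 of 19 alternatives. These were the fits without Mock replicate 2 (0.20), Mock replicate 3 (0.14), or Re-introduction replicate 1, 2 or 3 (0.20, 0.20 and 0.19). The others were DESeq2 size factors (0.19) and the DESeq2 Wald test (0.19). With length and GC trends removed, Phgdh was instead at 0.57 (adjusted p = 6.56e-07), while Shmt2 was at -0.015 (adjusted p = 0.694) and lost its call. With the length trend alone removed Shmt2 was at -0.14, still called. These 2 transcripts have the highest GC content of the 10, 57.2% and 57.4%, the others lying between 44.2% and 53.8%. In the same fit Aldh18a1 was at -0.29, still called lower. Psph was called lower without Auxin replicate 2 (-0.15, adjusted p = 0.0203).

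Levels were compared between genes per length, in CPM per kb of exon. In Mock the order was Asns (179 ± 3.4), Shmt2 (70.5 ± 3.1), Psat1 (51.2 ± 1.9), Mthfd2 (24.0 ± 0.86), Cth (16.7 ± 0.85), Aldh18a1 (15.0 ± 0.24), Phgdh (13.0 ± 0.78), Psph (6.69 ± 0.37), Cbs (6.16 ± 0.42) and Pycr1 (2.41 ± 0.28) (mean ± SD, n = 3). Neighbours in the order did not overlap in their libraries in any group, although in Mock the mean ± SD ranges of Psph and Cbs touched. Under auxin the first 8 places were kept, with Asns at 395 ± 26 and Mthfd2 at 82.9 ± 7.7, and Pycr1 (7.96 ± 0.46) passed Cbs (3.41 ± 0.20). After washout Mthfd2 (14.0 ± 0.46) stood in sixth place, below Cth (22.2 ± 1.1) and Phgdh (15.0 ± 0.26). The named tools include Bowtie2, which does not split a read across an intron. Its role is not given, and if it placed the reads, genes with many exons (9 to 21 exon blocks here) may be understated beside others.

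Among the enzymes, 3 have relatives with a related reaction in the cytosol or elsewhere. Shmt1, Mthfd1 and Pycrl fell under auxin, and Mthfd1 and Pycrl were picked with their values known. Not all relatives fell: from Mock to Auxin, Mthfd2l went from 1.71 ± 0.137 to 3.23 ± 0.377 CPM. Mthfd1l was at 93.1 ± 2.38 and 93.5 ± 8.58 CPM. Shmt1, the cytosolic counterpart of Shmt2, went from 258 ± 8.57 to 86.7 ± 4.82 and 124 ± 1.75 CPM (Mock, Auxin, Re-introduction), a fall of 1.57 under auxin (SE 0.056, adjusted p = 1.26e-10). Mthfd1, the cytosolic enzyme that interconverts the same folate forms as Mthfd2, went from 292 ± 6.69 to 124 ± 9.77 and 214 ± 8.26 CPM and fell by 1.24 (SE 0.064, adjusted p = 2.74e-09). Pycrl, a relative of Pycr1, fell by 0.67 (SE 0.075, adjusted p = 3.91e-06). Shmt1 shares 184 bases of exon with Smcr8. With length and GC trends removed the falls were still called, at -1.49 for Shmt1, -1.07 for Mthfd1 and -0.17 for Pycrl.

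Ratios of these pairs were formed within each library from per-length levels, a comparison chosen after the values were seen. Shmt2 relative to Shmt1 was 1.06 ± 0.012 in Mock, 5.73 ± 0.19 under auxin and 1.68 ± 0.025 after washout (mean ± SD, n = 3). Mthfd2 relative to Mthfd1 was 0.273 ± 0.0036, 2.23 ± 0.056 and 0.218 ± 0.0044. The mitochondrial transcript of this pair was thus the more abundant per length in the Auxin libraries and the less abundant in the other groups. Pycr1 went from 0.0892 ± 0.0050 to 0.470 ± 0.022 and 0.203 ± 0.010 relative to Pycrl. Trends of length and GC content were not removed from these ratios, and exon length was 3935 bases for Pycr1 and 1353 for Pycrl. With both trends removed, Pycr1 was at 1.85 and Pycrl at -0.17 on the log2 scale in Auxin against Mock. The libraries did not overlap in any of the 9 comparisons of a ratio between 2 groups. As single genes, 74.3% (Auxin against Mock), 58.2% (Re-introduction against Auxin) and 75.2% (Re-introduction against Mock) of all genes tested did not overlap either. Each ratio had p = 0.1 in an exact two-sided permutation test of the log2 ratio (0.1 after Benjamini-Hochberg adjustment over the 9), the smallest p that 3 against 3 libraries can give. Libraries that do not overlap always give this p, so the test adds nothing to the values.

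**Figure D3:**
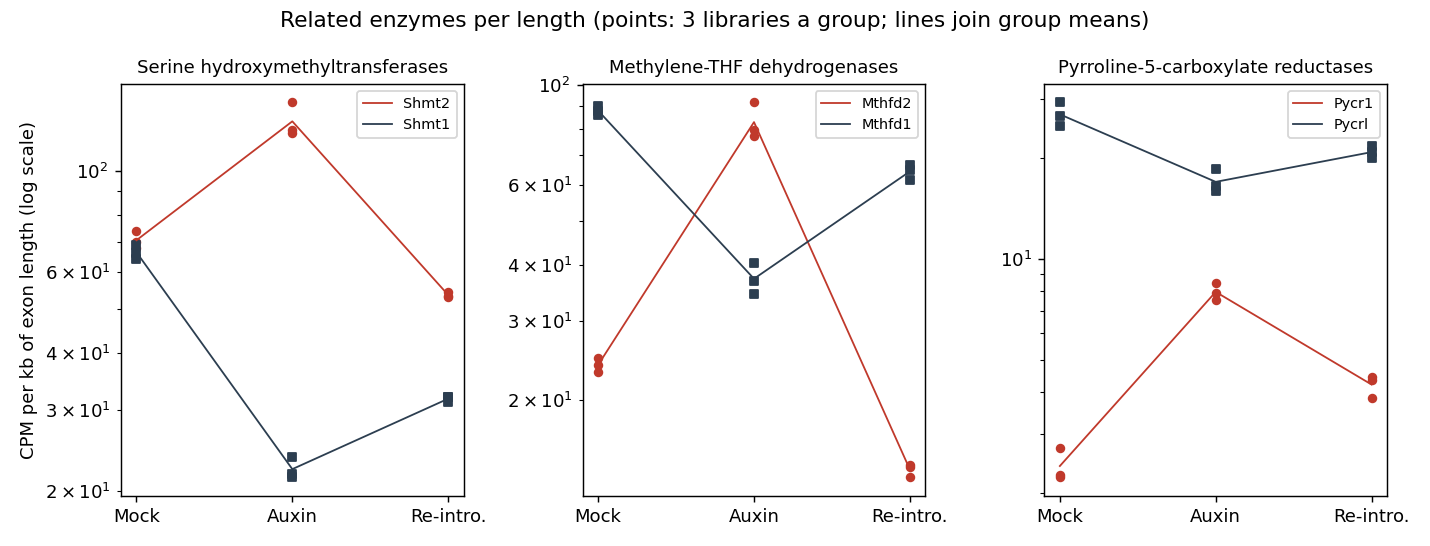
Per-length level in CPM per kb of exon (vertical axes, log scale) of 3 enzymes and a chosen relative of each, with points for the 3 libraries of a group and lines joining group means. Shmt2 and Mthfd2 lie above Shmt1 and Mthfd1 under auxin, where these relatives have their lowest values, and Pycr1 stays below Pycrl in all groups.

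The surrounding pathways were described with 6 lists that leave out the 10 enzymes. The counts of every list stand beside these shares of all genes tested. Called higher and lower were 38.2% and 34.7% in Auxin against Mock and 25.3% and 25.5% in Re-introduction against Auxin. In Re-introduction against Mock they were 34.5% and 33.5%. A count near these shares is no result about its list. Of 16 folate one-carbon and glycine genes, 3 were called higher and 9 lower in Auxin against Mock (median log2 fold change -0.32), 7 and 4 in Re-introduction against Auxin, and 2 and 11 in Re-introduction against Mock. Aldh1l2, a mitochondrial enzyme that oxidises formyl-folate, went from 0.938 ± 0.130 to 24.4 ± 2.36 and 7.92 ± 0.612 CPM, changes of 4.71, -1.62 and 3.09 in the 3 comparisons in that order, all called. It shares 1056 bases of exon (14.1%) with D10Wsu102e. Mthfd2l, a relative of Mthfd2, went from 1.71 ± 0.137 to 3.23 ± 0.377 and 4.09 ± 0.439 CPM (0.91, 0.34 and 1.25). Its rise after washout was lost in 13 of 19 alternatives: without Auxin replicate 1 (0.24) or 2 (0.32), any 1 Mock replicate (0.33 each) or Re-introduction replicate 1 (0.31) or 2 (0.27), and with library totals, the 1 CPM filter, the fit of 2 groups, the replicate block, halved counts or both trends removed. With length and GC trends removed its changes were 0.58, 0.16 and 0.74. Shmt1 changed by 0.51 and -1.06 in the later comparisons.

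Of 12 proline, ornithine and arginine genes 10 were tested, and 3 were called higher and 6 lower in Auxin against Mock (median -0.46), 3 and 3 in Re-introduction against Auxin, and 2 and 5 in Re-introduction against Mock. Odc1, which starts polyamine synthesis from ornithine, went from 260 ± 5.91 to 104 ± 14.9 and 119 ± 1.86 CPM (-1.32 under auxin and -1.13 against Mock after washout). Its change of 0.20 against Auxin was not called, but was in 4 of 19 alternatives. It was called without Auxin replicate 2 (0.30, adjusted p = 9.95e-06) and with no filter (0.20, adjusted p = 0.0449). The same held with the length trend removed (0.20, adjusted p = 0.0118) or both trends removed (0.27, adjusted p = 0.000182). Asl, the argininosuccinate lyase, rose by 0.54, fell by 0.24 and ended 0.30 above Mock. Its fall was lost without Re-introduction replicate 1 (-0.24) or 2 (-0.23), or with length and GC trends removed (-0.15, adjusted p = 0.0608). Prodh, which degrades proline, rose by 0.47, fell by 0.30 and ended 0.16 above Mock. That last difference was lost in 11 of 19 alternatives: without any 1 Mock replicate, Auxin replicate 1 or 3, or Re-introduction replicate 1 or 3 (0.096 to 0.16), and with DESeq2 size factors, the DESeq2 Wald test, no filter or the replicate block. It was larger with library totals (0.29), the length trend removed (0.28) or both trends removed (0.39, adjusted p = 8.26e-05).

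Of 12 aspartate, glutamate and glutamine genes, 4 were called higher and 7 lower in Auxin against Mock (median -0.32), 4 and 3 in Re-introduction against Auxin, and 2 and 7 in Re-introduction against Mock. Gpt2, the mitochondrial alanine aminotransferase, went from 26.2 ± 0.618 to 182 ± 9.51 and 20.8 ± 0.983 CPM, changes of 2.80, -3.13 and -0.33. Its relative Gpt moved oppositely under auxin, with -1.80, 0.82 and -0.98. Against Mock after washout, Gpt was at -0.53 with length and GC trends removed and Gpt2 at -0.20 with library totals, both still called lower. Got2, the mitochondrial aspartate aminotransferase, went from 181 ± 11.1 to 67.4 ± 8.30 and 67.7 ± 3.14 CPM, a fall of 1.42 that remained after washout (-1.42 against Mock). Its change against Auxin, 0.0075, was not called.

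Of 15 methionine cycle and sulphur genes, 6 were called higher and 6 lower in Auxin against Mock (median -0.25), 5 and 3 in Re-introduction against Auxin, and 5 and 6 in Re-introduction against Mock. The first 2 counts were near the shares over all genes tested, 38.2% and 34.7%. Cdo1, which oxidises cysteine, rose by 1.53 under auxin and Mtr, the methionine synthase, by 0.66. Bhmt2, a methyltransferase of this cycle, fell by 2.34, and Ahcy, which releases homocysteine, fell by 1.66, from 192 ± 13.5 to 60.7 ± 8.13 and 76.3 ± 3.61 CPM. All 4 were still called against Mock after washout. Against Auxin they changed by -0.62 (Cdo1), -0.093 (Mtr, not called), 1.44 (Bhmt2) and 0.33 (Ahcy), and against Mock by 0.91, 0.57, -0.90 and -1.33.

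Of 7 genes that use serine 5 were tested, and 1 was called higher and 2 lower in Auxin against Mock (median -0.0021). Srr, the serine racemase, rose by 1.22, and 30.0% of its exon length is shared with Smg6 and Tsr1. The phosphatidylserine synthases Ptdss2 and Ptdss1 fell by 0.49 and 0.45. In Re-introduction the 3 genes changed by -0.35, -0.23 and 0.066 (the last not called, but called at 0.12 without Auxin replicate 2) against Auxin and by 0.86, -0.72 and -0.39 against Mock. With library totals the falls of Ptdss2 and Ptdss1 under auxin were smaller, at -0.28 and -0.24. With length and GC trends removed Ptdss2 was at -0.13 against Auxin and Ptdss1 at -0.18 against Mock, both still called. Of the 5, 3 were called lower in Re-introduction against Auxin, and 1 higher and 3 lower against Mock.

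The last list holds regulators of the integrated stress response. Of its 13 genes, 11 were called higher and 1 lower in Auxin against Mock (median 2.19), 2 and 9 in Re-introduction against Auxin (median -1.55), and 8 and 5 in Re-introduction against Mock (median 0.50). Atf4 mRNA went from 241 ± 12.04 to 597 ± 67.5 and 171 ± 1.83 CPM. It rose by 1.31 (SE 0.076, adjusted p = 8.49e-09), fell by 1.80 (SE 0.078, adjusted p = 2.87e-09) and ended at -0.50 against Mock (SE 0.075, adjusted p = 8.40e-05), a call lost with length and GC trends removed (-0.040). Its groups thus took the order of Shmt2, Mthfd2, Aldh18a1 and, by a narrow margin, Psph, with Auxin highest and Re-introduction lowest. Asns, Pycr1, Cth and Phgdh took another order, with Re-introduction between Mock and Auxin. The share of all genes with either order was not counted. Shmt2, like Atf4, was not called against Mock after washout with length and GC trends removed (-0.015). Atf3 and Nupr1, stress-induced transcription regulators, rose by 5.92 and 5.51, fell by 4.78 and 4.44, and ended 1.13 and 1.07 above Mock. These changes started from low levels. Atf3 was at 0.507 ± 0.177, 31.7 ± 2.33 and 1.16 ± 0.155 CPM in Mock, Auxin and Re-introduction, and Nupr1 at 2.99 ± 0.329, 136 ± 15.2 and 6.23 ± 0.788 CPM. Eif2ak1, a kinase that starts the response when haem is short, changed by -0.63, 0.21 and -0.43, and the second of these was lost with library totals (0.13, adjusted p = 0.0514). ATF4 is controlled largely through translation, which was not measured.

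**Figure D4:**
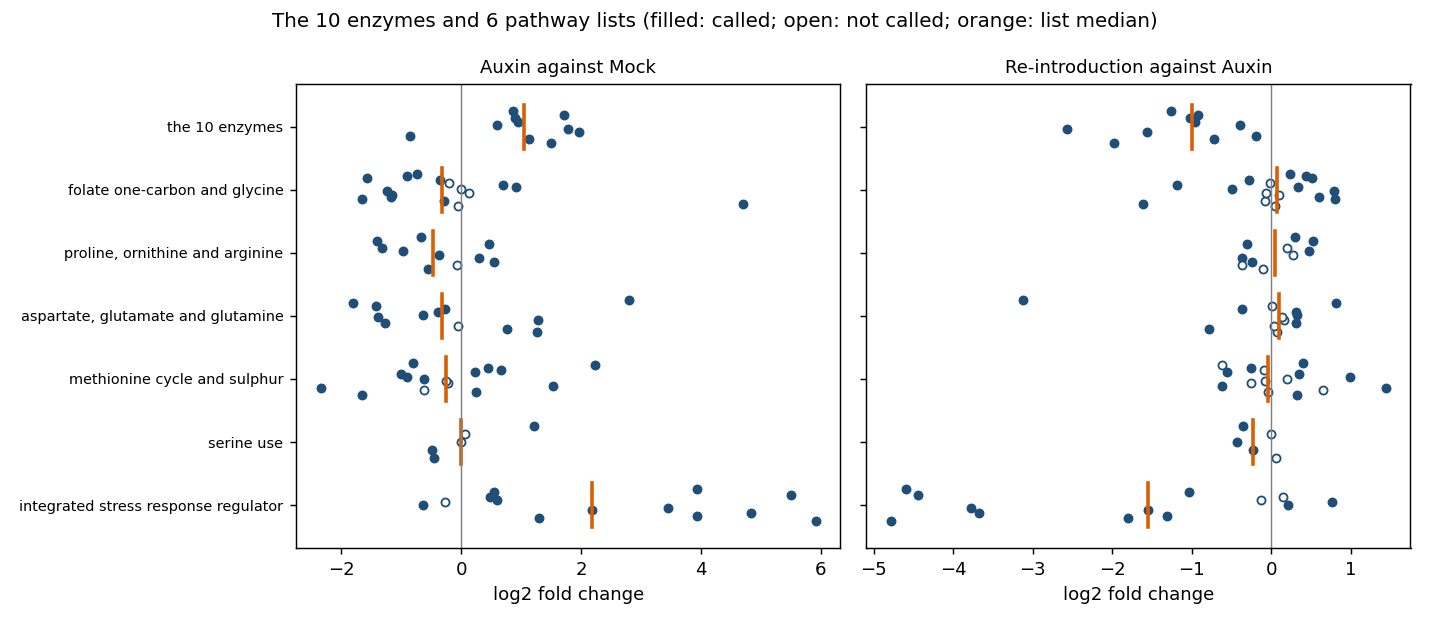
Log2 fold changes (horizontal axes) of the 10 enzymes and of the tested genes in 6 pathway lists, in Auxin against Mock and in Re-introduction against Auxin; filled points were called, open points were not, and the orange line is the list's median. The 10 enzymes have medians of 1.05 and -0.99, and the lists other than the stress response regulators have medians between -0.46 and 0.10.

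The genes that followed Asns most closely over the 9 libraries were sought among 15180 tested genes of at least 1 CPM on average. The highest Pearson correlations of log2 level were those of Strn4, a striatin family scaffold (0.9995), Serinc3, a membrane protein (0.9973), Plekhm2, a lysosome adaptor (0.9971), Arl8a, a small GTPase of lysosomes (0.9971) and Stom, the membrane protein stomatin (0.9968). Of the enzymes, Pycr1 (0.989), Cth (0.980) and Phgdh (0.963) came closest, followed by Psat1 (0.924), Psph (0.881), Aldh18a1 (0.816), Mthfd2 (0.778) and Shmt2 (0.771), with Cbs at -0.644. The 3 closest are those called above Mock after washout, as Asns was. Both rest on the same group levels, so this is not a separate observation. These values describe 9 libraries in 3 groups with shared scaling, and high values were common: Pycr1 ranked 125 and Psat1 1546.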

How the data were processed

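PolyA RNA of 9 libraries was analysed, with groups and replicate numbers from the labels. The authors deposited raw counts per gene, 1 table per library. Per the file headers, featureCounts 2.0.6 summed exons by gene for paired reads with an mm10 annotation and did not use strand or join mates, so fewer independent fragments than counts lie behind a value. Per the submitters' processing notes, Trim Galore 0.6.10, FastQC 0.12.1, Bowtie2 2.5.3 and SAMtools 1.20 were also used, with no role given.

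Symbols were found for 48058 of 48440 genes, and GC content came from GENCODE transcripts. All 9 libraries were fitted together by edgeR 4.0.16 (R 4.3.3, limma 3.58.1) after filterByExpr and TMM scaling (factors 0.905 to 1.08), with the robust quasi-likelihood test and group as the only term. Standard errors were derived from the F statistic, and CPM uses the scaled library sizes. The fit was tested on simulated counts with 200 genes changed 2-fold. It recovered 95%, 94% and 97% of them in Auxin against Mock (20476 genes tested), Re-introduction against Auxin (20442) and Re-introduction against Mock (20460). Of its calls 4.52%, 11.3% and 8.49% were false, so calls near the threshold may be less sure than 0.05 implies. The draws were not repeated, and far fewer genes were changed than were called in the data. The simulation therefore cannot tell which of the comparisons is the surer.

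The 10 enzymes and the lists were chosen with earlier results of these data known. Also named were, of each list, up to 2 genes called higher and 2 lower with the largest change in Auxin against Mock among those with at least 1 CPM in the higher group, Atf4, and the 5 genes most like Asns. Some genes that this rule names are not reported here. Mthfd1 and Pycrl were added after their values were seen. Alternatives were DESeq2 size factors and Wald test (DESeq2 1.42.0), library totals, no low-count filter, at least 1 CPM in 3 libraries, the 2 compared groups alone, the replicate block, halved counts, length (and GC) trends removed, a 2-fold requirement and each library left out.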

Additional observations from a re-analysis of the deposited data

How the results depend on the processing

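Of 570 values of the 10 enzymes (3 comparisons under 19 alternatives each), 546 kept their direction and side of the threshold, 17 lost the call, 1 gained it and 6 changed sign, and all 10 calls in Auxin against Mock were kept. Requiring a 2-fold change as well left 6618, 2275 and 4653 genes in Auxin against Mock, Re-introduction against Auxin and Re-introduction against Mock, and of the enzymes 5 higher and 0 lower, 0 higher and 5 lower, and 0 higher and 1 lower; without it 9 were higher and 1 lower in the first (edgeR). Replicate numbers did not pair the samples: same-numbered libraries correlated at -0.334 to 0.209 in their deviations from group means, and 2 of 9 libraries correlated best with their own number. With the replicate block 14740, 9781 and 13590 genes were called, with 9 enzymes higher and 1 lower, 9 lower, and 4 higher and 4 lower. Leaving out 1 library gave 14281 to 16194, 9181 to 11593 and 13030 to 15301 called genes, with 9 enzymes higher and 1 lower, 9 to 10 lower, and 3 to 4 higher and 4 to 5 lower. Library totals without scaling factors moved the median over all genes tested to 0.26, -0.077 and 0.157 and the share of calls that were higher to 63.2%, 39.8% and 59.7%, from 52.4%, 49.8% and 50.7%.

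Counts in the pathway lists moved by over 1.5 times in these cases. In Auxin against Mock, the folate genes called higher, 3, became 5 with library totals. The serine use genes called higher, 1, became 3 with library totals and 2 with the 1 CPM filter, halved counts, the length trend removed or both trends removed. The stress response genes called lower, 1, became 2 with both trends removed and 1 to 2 without 1 library. In Re-introduction against Auxin, the sulphur genes called lower, 3, became 6 with library totals. The serine use genes called higher, 0, became 1 with both trends removed and 0 to 1 without 1 library. The stress response genes called higher, 2, became 1 with library totals. In Re-introduction against Mock, the proline genes called higher, 2, became 1 with DESeq2 size factors, no filter, the DESeq2 Wald test or the replicate block and 4 with both trends removed and 1 to 2 without 1 library. The sulphur genes called higher, 5, became 3 to 5 without 1 library. The sulphur genes called lower, 6, became 3 with the length trend removed or both trends removed. The serine use genes called higher, 1, became 2 with library totals or the 1 CPM filter. The stress response genes called lower, 5, became 3 with both trends removed.

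Values that changed sign were not called in the reported fit, except for Pycrl. In Re-introduction against Mock, Psat1 was at 0.12 with library totals, 0.011 with the 1 CPM filter, 0.023 with the length trend removed, 0.061 with both trends removed and -0.057 to 0.013 without 1 library. There Psph was at 0.0075 with library totals, and Pycrl at 0.036 and 0.15 (called higher) with the length trend and both trends removed. In Re-introduction against Auxin, Got2 was at -0.071 with library totals, -0.039 with the 1 CPM filter, -0.0013 in the fit of 2 groups, -0.020 with halved counts and -0.055 to 0.10 without 1 library. Ptdss1 was at -0.013 with library totals. The cause was not tested. Depth was at least 452 counts for each of the 10 enzymes in every library.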
